A study of Danio rerio with 18 samples.

Results

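The 5-methylcytosine (m5C) sites described here are those assigned to huwe1 in bisulfite-sequenced mRNA of zebrafish embryos. They comprised every entry with this gene symbol in the 9 deposited stage lists, which were 39 of 21214 entries and 16 of 9047 distinct sites. The gene was chosen by its number of listed sites, the highest in the series, so the number of its sites is given as a description only. Polyadenylated RNA of wild type AB fish was collected at 9 stages, every 2 hours between 0 and 10 hours post fertilization (hpf) and later at 16, 24 and 48 hpf, from pools of animals, with no other genotype or treatment. There were 2 libraries per stage and 18 in all. The libraries of a stage were merged into 1 value per site before deposition. The spread between replicates is thus unknown for every value below. All intervals and Fisher's exact tests cover counting error only, and a second test adds a spread set between stages.

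HUWE1 is a very large E3 ubiquitin ligase of the HECT class, the enzymes that take ubiquitin onto a cysteine of their own HECT domain before passing it to a target protein. In mammals it marks many proteins, among them the survival factor MCL1, the replication factor CDC6 and MYC family proteins. In mRNA, m5C is placed by the methyltransferases NSUN2 and NSUN6. The early zebrafish embryo lives on mRNA that the mother put into the egg, and this store is cleared while the embryo's own genome is switched on.

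After bisulfite treatment an unmethylated cytosine reads as T, whereas m5C resists and reads as C. The level of a site is the share of C among its C and T reads, and the sum of both is its coverage. A list holds a site only if it had a coverage of at least 20 reads and a level of at least 10%. The absence of a site from a list therefore does not show that it was unmethylated. It can also have been covered too thinly or have failed another filter of the authors, and these cases cannot be told apart.

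All 16 sites lay on the plus strand of chromosome 23 in the Zv9 assembly and carried the gene ID ENSDARG00000016782, which a table of current gene names gives as HUWE1. They are numbered here 1 to 16 in 5′ to 3′ order. Site 1 was at position 28753458 and site 16 at 28804011, a span of 50.6 kb that includes introns. No other gene had a listed site in this span. Whether a site is in a coding exon or in an untranslated region, and its sequence context, were not analysed here.

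The sites were unevenly spread. The 15 distances between neighbours had a median of 2709 nt, and 6 of them were under 1000 nt. Sites 1 to 5 lay within the first 4.13 kb. A stretch of 15553 nt with no listed site separated site 5 (28757583) from site 6 (28773136). The closest pair was site 8 (28776893) and site 9 (28776900), 7 nt apart, and the next closest was site 10 (28782190) and site 11 (28782309), 119 nt apart.

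**Figure D1:**
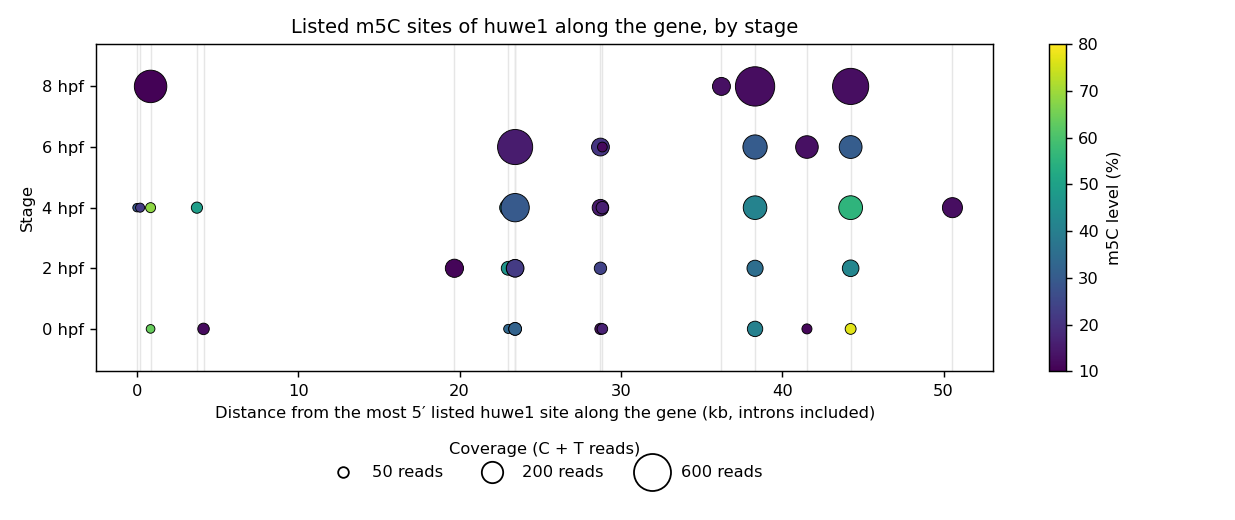
Each circle is 1 listed huwe1 site at 1 stage (rows, 0 to 8 hpf), placed by its distance in kb from the most 5′ listed site, with the area giving coverage in reads and the color giving the m5C level in percent. Of sites 1 to 5, the most 5′ listed ones, all but site 5 were listed at 4 hpf. The 4 circles at 8 hpf are dark, with levels of 10.4% to 12.8%, and their coverages ranged from 141 to 678 reads.

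From 0 to 8 hpf the 5 lists held 10, 7, 11, 7 and 4 huwe1 sites. The place of 0 hpf in this order depends on coverage, since with at least 50 reads the numbers were 6, 7, 8, 6 and 4, and with at least 100 reads 1, 5, 6, 6 and 4. No huwe1 site was listed at 10, 16, 24 or 48 hpf, where the lists held 428, 21, 14 and 25 sites of any gene. No gene had more sites at 0 or 4 hpf, and 1 gene had as many at 0 hpf. At 2 hpf 10 genes had more sites, at 6 hpf 1 gene and at 8 hpf 5 genes. These numbers were not adjusted for transcript length, and a long mRNA holds more cytosines.

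Listing changed from stage to stage for most sites. Only site 13 (28791774) and site 15 (28797700) were in all 5 lists from 0 to 8 hpf, and sites 7 (28776471), 9 and 10 were in the 4 lists from 0 to 6 hpf. The other 11 sites were in 1 to 3 lists, 7 of them in 1 list. Of the huwe1 sites of a stage, 6 of 10 were listed again at 2 hpf, 5 of 7 at 4 hpf, 6 of 11 at 6 hpf and 2 of 7 at 8 hpf. These shares were 60%, 71.4%, 54.5% and 28.6%, beside 71.8%, 73.9%, 40.2% and 28.1% over the sites of all genes. The share of 54.5% from 4 to 6 hpf had a Wilson 95% interval of 28.0% to 78.7%, and the share over all sites was 40.2%, inside that interval.

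A site could also leave the lists while a position close to it was well covered. Site 8 had 10 C reads of 71 at 0 hpf and 16 of 134 at 2 hpf, and was in no later list. Site 9, only 7 nt downstream, was covered by 351 reads at 4 hpf and 540 reads at 6 hpf. Site 11 was not listed at 2 hpf, where site 10, 119 nt away, had 67 reads, fewer than the list median of 148. At 0, 4 and 6 hpf site 11 had 49, 68 and 42 reads, and site 10 had 55, 120 and 139. The coverage of site 11 at 2 hpf thus cannot be read from site 10. Site 14 (28794991) was listed at 0 hpf with 5 C reads of 44 and at 6 hpf with 29 of 224, but not at 2 or 4 hpf. At those stages the nearest listed position, site 15, was 2709 nt away, so the coverage at site 14 is not known. The levels of site 14, 11.4% and 12.9%, were close to the minimum for listing.

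Levels differed widely between sites of the same mRNA. At 0 hpf they ranged over 11.4% to 76.9%, at 2 hpf over 11.03% to 46.4%, at 4 hpf over 12.5% to 68.2% and at 6 hpf over 11.9% to 30.3%. The range at 8 hpf was narrow, at 10.4% to 12.8%. The median over huwe1 sites was 24.1%, 23.9%, 29.6%, 19.0% and 12.4% at 0, 2, 4, 6 and 8 hpf, beside medians over all listed sites of 19.4%, 19.3%, 19.2%, 18.9% and 16.5%. At 8 hpf all 4 levels were thus below the median of the list, and for each of them at most 27.2% of the sites in the list had a lower level. The sets of sites differed between stages, and so did depth. Median coverage was 53.5 reads for huwe1 and 127 for the list at 0 hpf, and 517.5 and 97 reads at 8 hpf. The effect of depth on these medians was not tested.

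Site 15 and site 3 (28754299) carried the highest levels. Site 15 had 40 C reads of 52 at 0 hpf (76.9%), 51 of 121 at 2 hpf (42.1%), 138 of 248 at 4 hpf (55.6%), 69 of 228 at 6 hpf (30.3%) and 72 of 573 at 8 hpf (12.6%). At 0 hpf 95.7% of the listed sites of all genes had a lower level than site 15, and at 8 hpf 26.1% did. Site 3 was 0.841 kb from the most 5′ listed site. It had 21 C reads of 33 at 0 hpf (63.6%) and 30 of 44 at 4 hpf (68.2%). At 8 hpf it had 48 of 462 (10.4%), and it was not listed at 2 or 6 hpf. Both thus had more C than T reads at 0 and 4 hpf, site 15 had fewer C than T reads at 2 hpf, and both were near the listing minimum at 8 hpf.

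Sites 13, 7 and 9 had intermediate levels. Site 13 had 42 C reads of 104 at 0 hpf (40.4%), 40 of 114 at 2 hpf (35.1%), 101 of 244 at 4 hpf (41.4%), 78 of 258 at 6 hpf (30.2%) and 83 of 678 at 8 hpf (12.2%). Site 7 had 12 of 36 at 0 hpf (33.3%), 39 of 84 at 2 hpf (46.4%), 54 of 128 at 4 hpf (42.2%) and 30 of 158 at 6 hpf (19.0%). Site 9 had 23 of 72 at 0 hpf (31.9%), 30 of 135 at 2 hpf (22.2%), 104 of 351 at 4 hpf (29.6%) and 83 of 540 at 6 hpf (15.4%). Each of these sites had its lowest listed level in its last list.

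Sites 10 and 11 had levels of 11.9% to 23.9% in the lists that held them. Site 10 had 7 C reads of 55 at 0 hpf (12.7%), 16 of 67 at 2 hpf (23.9%), 18 of 120 at 4 hpf (15%) and 29 of 139 at 6 hpf (20.9%), and its Wilson intervals overlapped at all 4 stages, between 6.30% and 35.3%. Site 11 had 8 of 49 at 0 hpf (16.3%), 11 of 68 at 4 hpf (16.2%) and 5 of 42 at 6 hpf (11.9%). Neither was listed at 8 hpf.

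The remaining sites were seen once. Site 4 (28757173) had 27 C reads of 55 at 4 hpf (49.1%, Wilson 95% interval 36.4% to 61.9%). At the same stage site 1 had 9 of 31 (29.0%), site 2 (28753650) had 8 of 36 (22.2%) and site 16 had 22 of 176 (12.5%). Site 5 had 7 of 58 at 0 hpf (12.1%), site 6 had 16 of 145 at 2 hpf (11.03%) and site 12 (28789691) had 18 of 141 at 8 hpf (12.8%), the only huwe1 site absent from the lists of 0, 2 and 4 hpf and listed at a later stage. Apart from sites 1, 2 and 4, these levels were within 3 percentage points of the minimum.

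**Figure D2:**
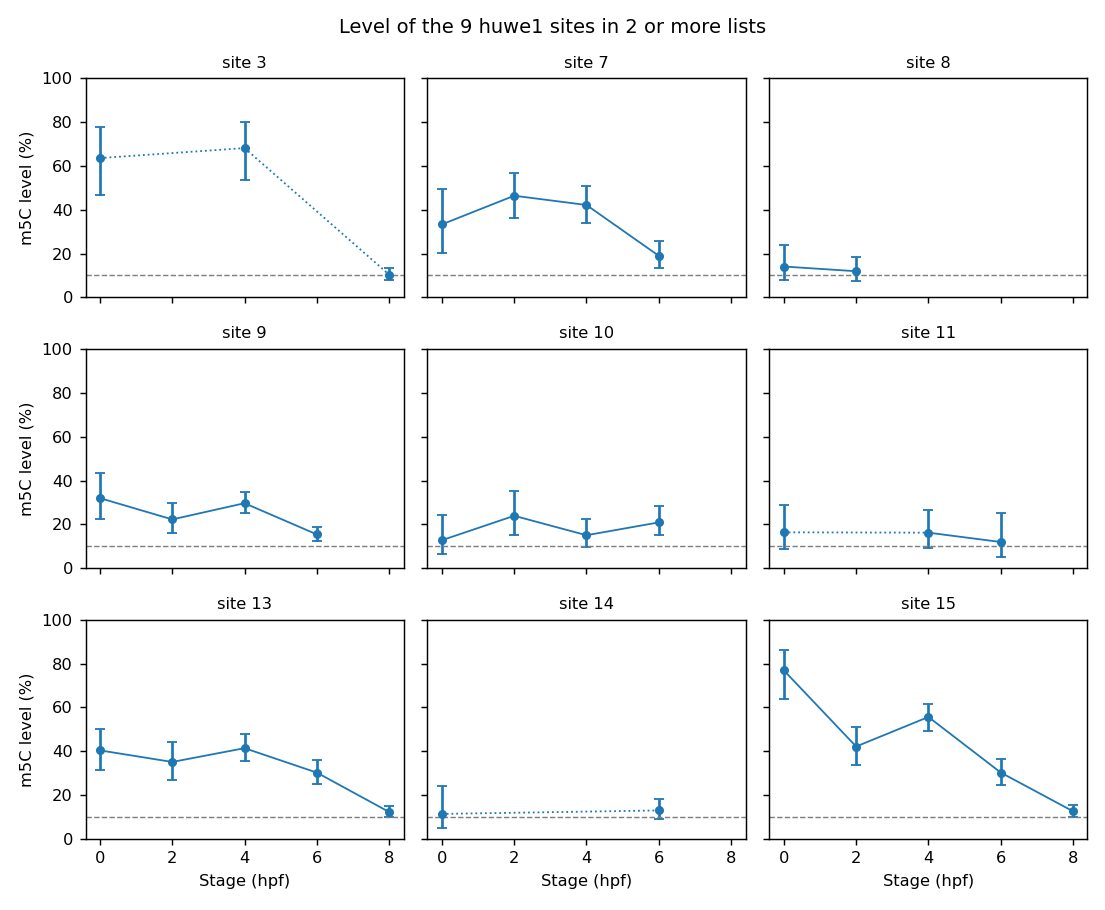
The m5C level in percent (y axis) of each of the 9 huwe1 sites in 2 or more lists is plotted by stage in hpf (x axis), with Wilson 95% intervals, the dashed line marking the listing minimum of 10% and dotted lines spanning a stage without a listing. Sites 3, 13 and 15 fell to 10.4%, 12.2% and 12.6% at 8 hpf. Site 10 had levels between 12.7% and 23.9% from 0 to 6 hpf and was not listed at 8 hpf.

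Ordered by level within a stage, neighbouring sites could seldom be separated. At 4 hpf the order from the top was site 3, 15, 4, 7 and 13, then 9, 1, 2, 11, 10 and 16. The Wilson interval of site 13 (35.4% to 47.7%) did not overlap that of site 9 (25.1% to 34.6%), and each other neighbouring pair overlapped. At 0, 2, 6 and 8 hpf all neighbouring pairs overlapped. The intervals of the highest and the lowest site did not overlap at 0, 2 and 4 hpf. At 6 hpf that of the highest, site 15 (24.7% to 36.5%), just reached that of the lowest, site 11 (5.19% to 25.0%). Over the sites in both lists the Spearman rho of the levels was 0.66 for 2 and 0 hpf (6 sites), 0.54 for 6 and 4 hpf (6 sites) and 0.93 for 4 and 0 hpf (7 sites), with a Pearson r of 0.68, 0.73 and 0.92. These sites share libraries and are not independent, so no test was made of these values.

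Before 6 hpf a change of level was called at site 15 alone. At 2 against 0 hpf, 6 sites could be compared, with a two-sided Fisher's exact test of the reads at each site, adjusted by Benjamini-Hochberg over all 3373 sites in both lists and called at 0.05. Site 15 was lower at 2 hpf, with 42.1% against 76.9% at 0 hpf, a difference of -34.8 percentage points (95% Newcombe interval -47.4 to -19.0, adjusted p 0.000778 by Fisher's exact test). No other huwe1 site passed, and over all sites 4.86% were called lower. Of the other 5 sites, 2 had positive and 3 negative differences, from -9.72 to 13.1 points, and each interval included 0.

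The low value of site 15 at 2 hpf was not followed by a further decrease at 4 hpf. At 4 against 2 hpf site 15 had 55.6% and 42.1%, a difference of 13.5 points (2.63 to 23.9), with p values from Fisher's exact test of 0.0197 before and 0.179 after adjustment. None of the 5 shared sites passed and 1 had an unadjusted p under 0.05. Over all 4587 sites Fisher's exact test called 5.95% in either direction. At 4 against 0 hpf none of 7 huwe1 sites passed, against 8.67% of all 3184 sites in either direction. There site 15 differed by -21.3 points (-32.5 to -6.89, adjusted p 0.0547 by Fisher's exact test) and was the only site with an unadjusted p under 0.05. When only sites with 50 or more reads at both stages were tested, its adjusted p was 0.0485 by the same exact test. Under that test this call thus sits at the threshold.

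Between 4 and 6 hpf the level fell at sites 7, 9, 13 and 15. These were 4 of the 6 shared sites, and over all 2367 sites 34.1% were called lower by Fisher's exact test. Site 15 had 30.3% at 6 hpf and 55.6% at 4 hpf, a difference of -25.4 points (-33.6 to -16.6, adjusted p 1.84e-07 by Fisher's exact test). Site 7 had 19.0% at 6 hpf and 42.2% at 4 hpf, a difference of -23.2 points (-33.4 to -12.5, adjusted p 0.000132). Site 9 differed by -14.3 points (-20.0 to -8.66, adjusted p 3.59e-06) and site 13 by -11.2 points (-19.4 to -2.77, adjusted p 0.0353). Sites 10 and 11 did not pass, with 5.86 points (-3.67 to 15.0) and -4.27 points (-16.7 to 10.5). A shared site has a level of at least 10% at both stages. From 15% and 16.2% at 4 hpf, sites 10 and 11 had little room for a fall. Their result therefore does not show that their levels held. The median difference over the 6 sites was -12.7 points, beside -4.99 points over all shared sites. A site that starts higher has more room above the minimum. Among sites listed at 0, 4 and 6 hpf, the median level at 4 hpf was 35.5% for huwe1 and 28.8% for all. The huwe1 sites of 4 hpf that were not listed at 6 hpf do not enter.

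A second test allowed for extra spread between stages, set over all sites from the 2 and 4 hpf comparison, so it is not read for that comparison itself. In this z test with beta-binomial variance, sites 7, 9 and 15 remained lower at 6 hpf, with adjusted p values of 0.00141, 0.00196 and 7.06e-05. Site 13 no longer passed (adjusted p 0.124), and 24.9% of all sites were called lower. Site 15 at 2 against 0 hpf still passed, with an adjusted p of 0.00863, as did 1.42% of all sites in that direction. At 4 against 0 hpf site 15 did not pass this z test (adjusted p 0.206).

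Between 6 and 8 hpf sites 13 and 15, the only shared sites, fell by nearly the same amount. Site 13 had 12.2% at 8 hpf and 30.2% at 6 hpf, a difference of -18.0 points (-24.3 to -12.1, adjusted p 2.55e-09 by Fisher's exact test). Site 15 had 12.6% at 8 hpf and 30.3% at 6 hpf, a difference of -17.7 points (-24.4 to -11.4, adjusted p 7.14e-08). Over all 754 shared sites the median difference was -8.99 points and 46.2% were called lower. Of these, 31.7% had a larger fall than site 13 and 32.2% a larger fall than site 15. At 8 hpf sites 13 and 15 had 678 and 573 reads, beside a median of 97 over the list, and a deeply read site is called more easily. Both sites also passed the z test, with adjusted p values of 9.44e-06 and 3.38e-05, which called 40.6% of all sites lower.

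**Figure D3:**
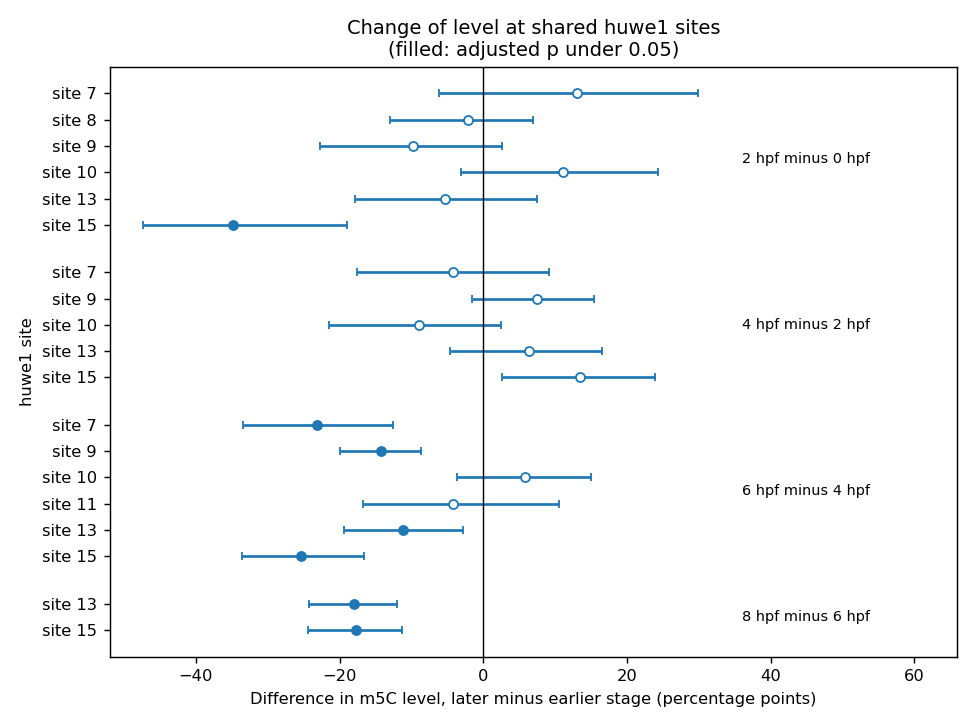
Differences in m5C level in percentage points (x axis, later minus earlier stage) at each shared huwe1 site (rows), with 95% Newcombe intervals and filled points for an adjusted p under 0.05 by Fisher's exact test. The filled points are site 15 at 2 against 0 hpf, sites 7, 9, 13 and 15 at 6 against 4 hpf, and sites 13 and 15 at 8 against 6 hpf, all on the negative side.

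From 4 to 8 hpf site 3 could be compared as well. It had 10.4% at 8 hpf and 68.2% at 4 hpf, a difference of -57.8 points (-69.9 to -42.7, adjusted p 2.14e-16 by Fisher's exact test). Sites 13 and 15 differed by -29.2 and -43.1 points. All 3 shared sites were thus lower, where 53.2% of all 921 shared sites were called lower with a median difference of -13.1 points. At 8 hpf sites 3, 13 and 15 had 462, 678 and 573 reads, beside a list median of 97, and a deeply read site is called more easily. At 4 hpf they had 68.2%, 41.4% and 55.6%, beside a list median of 19.2%, which left more room for a fall. A larger fall than at sites 3, 13 and 15 was seen at 8.69%, 26.0% and 15.5% of all shared sites. A site that had fallen below 10% at 8 hpf is not listed and cannot enter this comparison.

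At sites 13 and 15 the unmethylated reads were several-fold more numerous at 8 than at 6 hpf, whereas the methylated reads were nearly equal in number. Site 13 had 83 C and 595 T reads at 8 hpf, against 78 C and 180 T reads at 6 hpf. Site 15 had 72 C and 501 T reads at 8 hpf, against 69 C and 159 T reads at 6 hpf. The T reads were 3.31- and 3.15-fold higher at 8 hpf, and the C reads 1.06- and 1.04-fold. Over all 754 shared sites the median ratio of 8 to 6 hpf was 1.004 for T reads and 0.510 for C reads. Read numbers also depend on the depth of the libraries, which the lists do not give.

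Between 4 and 6 hpf both kinds of reads differed in number. At site 15 there were 69 C and 159 T reads at 6 hpf, against 138 C and 110 T reads at 4 hpf. At site 9 there were 83 C and 457 T reads at 6 hpf, against 104 C and 247 T reads at 4 hpf. Over the 6 huwe1 sites the median ratio of 6 to 4 hpf was 0.664 for C reads and 1.35 for T reads, beside 0.387 and 0.552 over all 2367 shared sites. At site 3 there were 48 C and 414 T reads at 8 hpf, against 30 C and 14 T reads at 4 hpf, so its T reads were 29.6-fold and its C reads 1.60-fold higher.

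**Figure D4:**
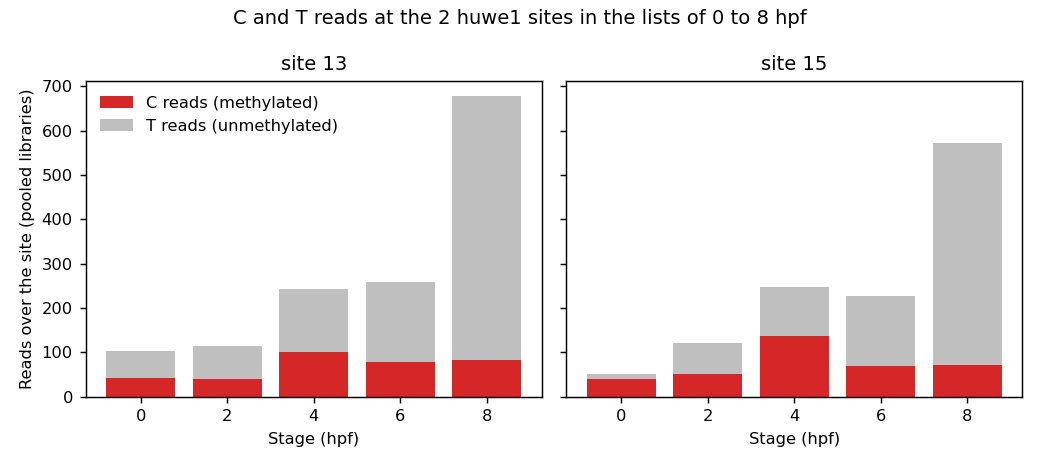
Stacked bars give the C reads (methylated) and T reads (unmethylated) over huwe1 sites 13 and 15 at each stage from 0 to 8 hpf, with both libraries of a stage pooled. At 8 against 6 hpf site 13 had 83 against 78 C reads and 595 against 180 T reads, and site 15 had 72 against 69 C reads and 501 against 159 T reads.

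The median coverage ratio between consecutive stages was higher over the shared huwe1 sites than over all shared sites in each comparison. At the huwe1 sites it was 1.88 at 2 over 0 hpf, 2.05 at 4 over 2 hpf, 1.11 at 6 over 4 hpf and 2.57 at 8 over 6 hpf, beside 1.35, 1.16, 0.488 and 0.816 over all shared sites. Not every site was above the median of all, since at 2 over 0 hpf site 10 had a ratio of 1.22 and site 13 of 1.10. In the 8 over 4 hpf comparison it was 2.78 for huwe1 and 0.433 for all. The median coverage of the listed huwe1 sites was 53.5, 121, 120, 224 and 517.5 reads from 0 to 8 hpf, and that of the whole lists 127, 148, 167, 133 and 97 reads. More huwe1 mRNA per embryo and less of other mRNAs cannot be told apart from these values, and they need not be the only possibilities. Only polyadenylated RNA was read, and what set the ratios was not tested. At 8 hpf, where the sites were most deeply read, a level of 12.2% at site 13 was known to within 9.99% to 14.9%, whereas the 33 reads of site 3 at 0 hpf left an interval of 46.6% to 77.8%.

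Coverage was also uneven along the gene. At 4 hpf sites 1 to 4 had 31, 36, 44 and 55 reads, and the 7 sites from site 7 to site 16 had 68 to 351. Over the 11 sites at 4 hpf the Spearman rho of coverage with position was 0.78 (Pearson r 0.66). At 0, 2 and 6 hpf, with 10, 7 and 7 sites, rho was 0.20, -0.39 and 0.14, so the sign differed between stages. The sets of sites differed as well, and none of sites 1 to 4 was listed at 2 or 6 hpf. These values thus cover different stretches of the gene. At 8 hpf site 3 was covered by 462 reads, 10.5-fold the number at 4 hpf, beside 2.78-fold at site 13 and 2.31-fold at site 15. Level and position had a rho of 0.04, 0.46, -0.24 and 0.29 at 0, 2, 4 and 6 hpf. These correlations are descriptions over sites that share libraries, with few points each.

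Other HECT ligase genes were also listed. Symbols were counted as written and include older names, so their number is not a number of genes. Of 31 symbols of this class that are reported here, huwe1 among them, 18 had a site and 6 had 3 or more. Among these, herc2 had 9 sites, a ligase that acts in the DNA damage response in human cells, and trip12 had 8, which acts in the degradation of ubiquitin fusion proteins. HERC1 had 6 sites, hace1, which targets the GTPase RAC1 in human cells, had 4, and smurf2, which targets the SMAD proteins of the TGF-beta pathway, had 3. Without huwe1 the other genes together had 29, 24, 29, 14, 6 and 1 sites from 0 to 10 hpf. The single site at 10 hpf was in itcha, the counterpart of the ligase ITCH, a gene named here after its values were seen.

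At 6 against 4 hpf the called sites of the HECT genes other than huwe1 were all in trip12. Without huwe1, 12 sites of the genes were shared by 4 and 6 hpf, of which 3 were called lower and none higher at 6 hpf by Fisher's exact test, with a median difference of -9.12 points. The 3 called sites were among the 4 shared sites of trip12. Over all sites 34.1% were called lower, and the share called higher is not given here. At 2 against 0 hpf none of 17 sites was called, beside 9.69% of all sites in either direction, and at 4 against 2 hpf none of 16, beside 5.95%. At 8 against 6 hpf 1 of 4 sites was called lower, in trip12, with a difference of -55.3 points, and none higher, beside 46.2% of all sites called lower.

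**Figure D5:**
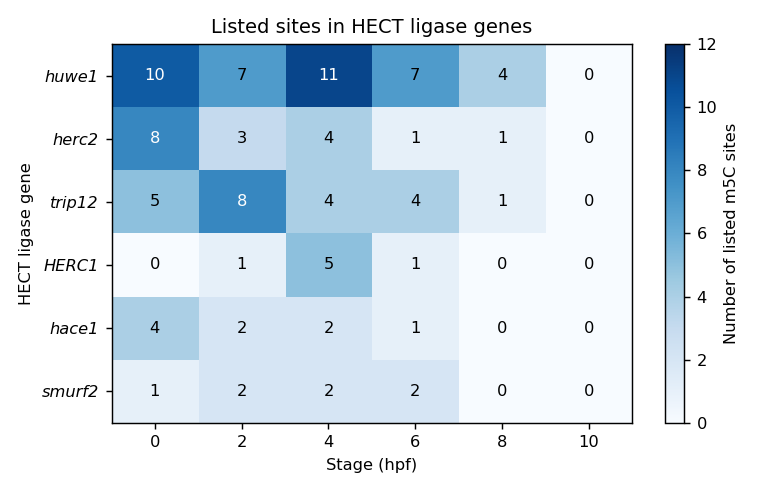
Each cell gives the number of listed m5C sites in a HECT ligase gene (rows, the reported genes with 3 or more distinct sites, most at the top) at a stage from 0 to 10 hpf (columns). huwe1 had 10, 7, 11, 7, 4 and 0 sites and trip12 5, 8, 4, 4, 1 and 0.

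The genes whose numbers of sites over the 9 stages were closest to those of huwe1 were tpra, chd7, lrp1b, SPEN and plcg1, by the sum of absolute differences (7, 10, 10, 10 and 12 sites). From 0 to 8 hpf huwe1 had 16 distinct positions and the nuclear pore basket gene tpra 10, listed as 10, 9, 9, 8 and 2 sites by stage. The chromatin remodeller gene chd7 had 9, 10, 8, 7 and 1, the receptor gene lrp1b 6, 8, 8, 7 and 2, the transcriptional repressor gene SPEN 8, 8, 8, 7 and 0, and the phospholipase gene plcg1 6, 7, 5, 5 and 4. None had a listed site after 8 hpf. At 6 against 4 hpf 4 of 6 huwe1 sites were called lower by Fisher's exact test, beside 8 of 8 tpra sites, 7 of 7 chd7 sites, 1 of 6 in lrp1b, 2 of 7 in SPEN and 1 of 5 in plcg1. Over all 2367 sites 34.1% were called lower.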

How the data were processed

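Stages were taken from the sample titles. Per the study's methods, stranded libraries were made from bisulfite-converted RNA. The authors used cutadapt and Trimmomatic for trimming and mapped the reads with HISAT2 (version 2.10 per the submitters' processing notes) to the converted Zv9 genome, and the rest with Bowtie2 to converted transcripts. A binomial test that used the conversion rate of the gene called the sites, and replicates were merged. The deposited files hold the coverage (a count of reads with C or T), the level (a fraction, in percent here) and a p-value of each call, which entered no step here. C reads are coverage times level, whole at all 21214 entries within a relative tolerance of 1e-06.

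Fisher's exact test (SciPy 1.17.1) was run on every site listed at both stages of 10 comparisons, in place of a logistic model across replicates, which pooled lists do not allow. Its p-values are too small where stages differ by more than counting error. The z test with beta-binomial variance used a within-stage correlation of 0.00232. Wilson and Newcombe intervals came from statsmodels 0.14.6. They cover counting error only, and PCR copies are not told apart. The tests were tested on simulated data. The gene, its lists and the tests were chosen with earlier results of these data known. All huwe1 sites are named, with the 5 genes closest in sites per stage, the HECT ligases with 3 or more sites (some genes of this list are not reported here and enter none of its counts), and up to 5 genes of each other list, leaving out ties. Alternatives were minimum coverages of 50 and 100 reads, a minimum level of 0.2, a minimum of 5 C reads, weighting by coverage, the sites common to 0, 2, 4 and 6 hpf, merging within 10 nt, the gene ID, and Bonferroni adjustment.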

Additional observations from a re-analysis of the deposited data

How the results depend on the processing

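No paired analysis was possible because both libraries of a stage were merged before deposition. A replicate block and leaving out each replicate were therefore not run. Of 173 values under an alternative, 156 stayed close (within 1.5-fold for a count, otherwise inside the interval or range over sites) and 17 moved. Matching by gene ID and a minimum of 5 C reads left the huwe1 entries unchanged, so site numbers and levels could not move under them. A median at 0 hpf of 40.4%, on the 1 site with at least 100 reads, counted as close to 24.1%. The number of close values is therefore no measure of how firm the results are. Coverage limits thin out 0 hpf, where huwe1 was least covered. At least 50 reads left 6 sites at 0 hpf, and at least 100 reads left 1 at 0 hpf and 6 at 4 hpf. A minimum level of 0.2 left 5, 3 and 0 sites in the lists of 0, 6 and 8 hpf. The share listed again at 2 hpf was 83.3% with at least 50 reads and 100% with at least 100, and that from 4 to 6 hpf 83.3% with at least 100 reads. With a level of at least 0.2 it was 25.0% from 4 to 6 hpf and 0% from 6 to 8 hpf. Fewer sites enter these shares by construction.

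Sites called lower at 2 than at 0 hpf became 0 with at least 100 reads, where site 15 has too few reads, and 0 with Bonferroni adjustment. Those at 6 than at 4 hpf became 2 with a level of at least 0.2, since sites 7 and 9 drop out, and 2 with Bonferroni adjustment. Those at 4 than at 0 hpf became 1 with at least 50 reads and 1 with a level of at least 0.2, where fewer sites are tested. Of 66 single-site values 64 kept their side of the threshold. The exceptions were site 13 at 6 against 4 hpf in the z test (-11.2 points, adjusted p 0.124) and site 15 at 4 against 0 hpf with at least 50 reads. These 66 values, and the 173 above, include the z test at 4 against 2 hpf, the comparison that set its extra spread. Of 28 median changes under an alternative 2 had another sign, both at 4 against 0 hpf, where the median change was 1.01 points, -0.65 points under the limit of 50 reads and -0.25 points for summed reads.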

Other observations

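Genes for proteins that HUWE1 is known to mark or bind in mammals were looked up as well. Of 26 such symbols 11 had a listed site, 20 distinct sites in all. The most were in topbp1, a DNA replication checkpoint gene, with 5 sites, and in dvl2, a Wnt signalling gene, with 4. The DNA polymerase gene pola1 and the mitochondrial fusion gene mfn1b had 2 each. From 0 to 10 hpf the list had 12, 15, 14, 4, 1 and 0 sites. At 2 against 0 hpf 2 of its 10 shared sites were called lower by Fisher's exact test, in dvl2 and dvl3a, and 1 higher, in cdc6 (6.43 points), beside 9.69% of all sites in either direction. At 4 against 2 hpf 1 of 11 was called lower, in cdc6 (-3.48 points), and 1 higher, in dvl3a (3.37 points), beside 5.95% of all sites. In both genes the direction was the opposite of that at 2 against 0 hpf. The calls in this list rest on Fisher's exact test alone, which covers counting error only. At 6 against 4 hpf 1 of 4 was called lower, in cdc6 (-10.1 points), beside 34.1% of all sites called lower. The single site shared by 8 and 6 hpf was not called. The genes cdc6 and dvl3a are named here after their values were seen.

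Genes of enzymes that act before a ligase in ubiquitin transfer were looked up too. The series held 9047 distinct sites in 5129 genes. Of 13 symbols of the activating enzyme and of conjugating enzymes 6 had a site, 7 distinct sites in all. Of these 6, ube2ka had 2 sites and the others 1. None of their shared sites was called between consecutive stages up to 8 hpf by Fisher's exact test, over 5, 5, 1 and 1 sites. Over all sites 9.69% and 5.95% were called in either direction in the first pair of these comparisons, and 34.1% and 46.2% were called lower in the others. The number of sites in these 3 lists was not adjusted for transcript length. Their symbols can include more than 1 name of a gene, so shares of symbols are not shares of genes. The data do not count genes without a listed site, so no share over all genes can be set beside them.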
